A study of Solanum lycopersicum with 8 samples.

Results

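The mature leaf of the tomato accession RJ was compared with the mature leaves of the accessions AV, TM and SK. The RJ leaf is 1 of 8 arrays in the series, and the 3 other leaf arrays served as its reference, chosen by their labelled tissue and accession. The remaining arrays hold red ripe fruit of the same accessions, which enter only the scaling and a few values given side by side. Whole-leaf RNA, carrying the dye Cy3, was measured on one-colour Agilent arrays. According to the labels, RJ came from Rajouri, AV from Hyderabad, TM from Kashmir and SK from Chatha, and the accessions differ in how their fruit matures and stores carotenoids. The labels give no plant age and no treatment, and they do not say whether an array holds 1 plant or a pool. RJ leaf was measured on a single array without a replicate, no test was made, and a difference between accessions cannot be told apart from a difference between single RNA samples. No value here checks the accession labels.

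Leaves use carotenoids to gather light and to protect the photosystems, and they make them in the plastid from isoprenoid precursors. Phytoene synthase opens the pathway, desaturases lead to lycopene, and lycopene cyclases divide the flow between the lutein branch and the beta-carotene branch, from which abscisic acid is made. Leaves also form transitory starch from photosynthetic sugar, dispose of hydrogen peroxide with catalases, and in tomato store steroidal glycoalkaloids, bitter defence compounds made from cholesterol.

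All levels below are log2 intensities minus the array's 75th percentile, so that 0 lies at that percentile, and a difference is RJ leaf minus the mean of the 3 other leaves. A probe was kept where its signal was well above background on all 4 leaf arrays, which held for 4625 of 33750 probe names (13.7%). Of the kept probes 657 could be named (14.2%), and they gave 264 genes with a symbol, out of 893 such genes on the array. All other probes stayed unnamed, including 7 of the 10 largest positive and 8 of the 10 largest negative differences. All leaf arrays lay on 1 slide and share 1 scan entry in their headers, and none had a saturated spot. RJ leaf had 6795 probes well above background, against 6767 in AV leaf, 8237 in TM leaf and 5827 in SK leaf. Its 75th percentile before scaling was 12.6 on the log2 scale, against 13.1, 12.9 and 13.8 in AV, TM and SK leaf. Replicate spots of 79 probes varied within RJ leaf with a median SD of 0.086 (log2), against 0.077, 0.073 and 0.055 in AV, TM and SK leaf. This spread covers the spots of an array and not the plants.

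Leaf genes were bright and ripe fruit genes mostly dim on all leaf arrays. Of 8 photosynthesis genes on the array, 6 were well above background in RJ leaf, and 8, 6 and 6 in AV, TM and SK leaf. Of 14 ripe fruit markers, Cel2 alone was above background in RJ leaf, while 2A11, PG2, RIN, Psy1 and E8 were not. AV, TM and SK leaf had 3, 2 and 1 of these markers above background. The summed level of the fruit markers was -1.55 in RJ leaf, against -0.93, -1.77 and -1.32 in AV, TM and SK leaf (log2). Of 10 markers of glandular trichomes, root or stem, 3 were above background in RJ leaf (RSI-1, cevi16 and TPx1), and 1, 3 and 3 in AV, TM and SK leaf. Their summed level was -0.62 in RJ leaf, against -1.45, -0.66 and -0.96 in AV, TM and SK leaf, so that RJ leaf was the highest by a small margin over TM leaf. The part of such cells in the differences below was not tested. In whole leaf, fewer cells of a type and less RNA per cell cannot be told apart.

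RJ leaf lay close to TM leaf and far from AV and SK leaf. Across the kept probes, which are not independent replicates, RJ leaf correlated with TM leaf at r = 0.959, with SK leaf at r = 0.846 and with AV leaf at r = 0.797. At least 2-fold apart were 190 probes between RJ and TM leaf (4.1%), 988 between RJ and SK leaf (21.4%) and 1016 between RJ and AV leaf (22%). Of the 190 probes apart from TM leaf, 35 were higher and 155 lower in RJ leaf.

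A probe or gene was counted as higher or lower in RJ leaf where it differed from the mean of the other leaves by at least 2-fold, a log2 difference of 1, and also lay outside their range. By this rule 143 probes were higher in RJ leaf (3.09%) and 261 lower (5.64%), together 404 of 4625 (8.74%). The same count made for each other leaf gave 488 higher and 351 lower in AV leaf (18.1% together), 138 and 11 in TM leaf (3.22%) and 267 and 319 in SK leaf (12.7%). The share of RJ leaf thus lay below those of AV and SK leaf and above that of TM leaf. Among calls, 35.4% were higher in RJ leaf, but with the percentile taken over all probes the counts were 210 higher and 177 lower (54.3% higher). Scaling by spike-in probes, of which 3 of 10 were usable, moved the median difference to -1.03, in place of -0.13, and left 9 probes higher and 2369 lower. Under it the median of every gene list described below was negative except that of the defence list (0.06), with -0.96 over all named genes. The 0 line thus depends on the scaling. Counts of list members above or below 0 are to be read beside all named genes under the main scaling. Their median was -0.07, with 115 above and 149 below 0.

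**Figure D1:**
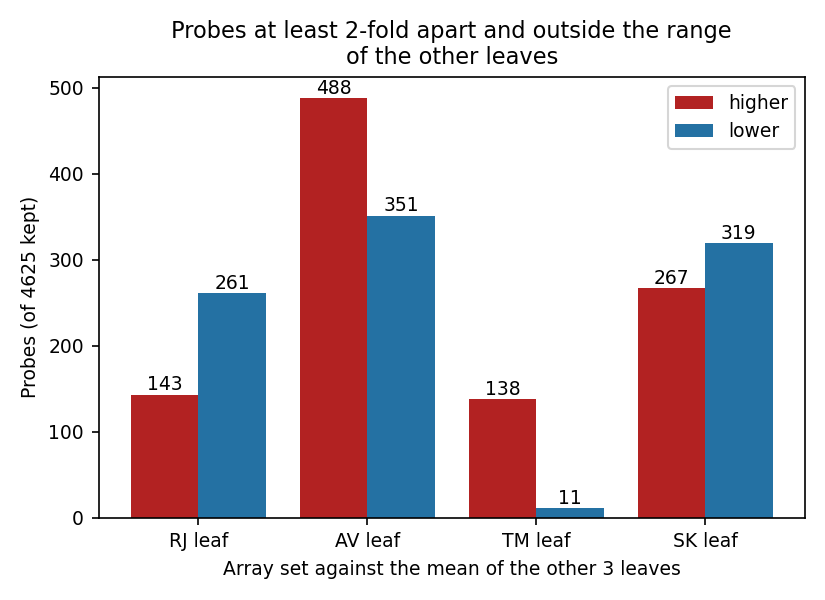
Number of probes (y axis, of 4625 kept) at least 2-fold above (red) or below (blue) the mean of the other 3 leaves and outside their range, for each leaf array (x axis, RJ leaf at the left). RJ leaf had 143 higher and 261 lower probes, more than TM leaf (138 and 11) in total and fewer than AV leaf (488 and 351).

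TM leaf was the nearest neighbour of most of these probes and AV leaf the most distant. The same shares over all kept probes were not counted, and TM leaf was nearest to RJ leaf over these as well (r = 0.959). Of the 143 higher probes, TM leaf was next to RJ leaf in 116 (81.1%) and AV leaf farthest in 80 (55.9%). Of the 261 lower probes, TM leaf was next in 147 (56.3%), SK leaf in 83 (31.8%), and AV leaf farthest in 182 (69.7%). Only 9 of the higher and 47 of the lower probes lay at least 2-fold from each of the 3 other leaves. The named genes among them were PT1, XTH1 and cat1 (4 probes) on the higher side and AGPL3 and ca2 (3 probes) on the lower side. Dim probes leaned further to the lower side. When the probes were divided by level into 4 groups of equal size, in the dimmest group the median difference was -0.23, with 10 higher and 53 lower, and in the brightest group it was -0.05, with 50 higher and 39 lower.

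**Figure D2:**
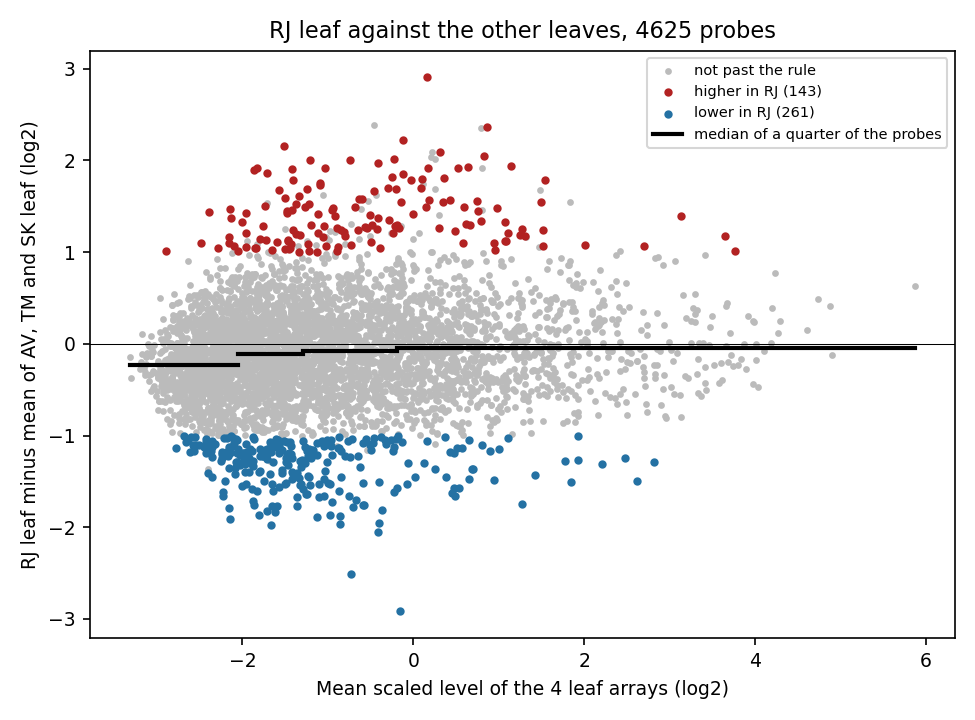
Difference of RJ leaf from the mean of the other leaves (y axis, log2) against the mean scaled level of the 4 leaf arrays (x axis, log2), 1 point per kept probe. Red points are the 143 higher and blue points the 261 lower probes, and the black steps give the median of each of 4 equal groups by level, which runs from -0.23 among dim probes to -0.05 among bright ones.

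Among the 264 named genes, 9 were higher (3.41%) and 14 lower (5.3%) in RJ leaf, together 23 (8.71%). The median difference over all of them was -0.07, with 115 above and 149 below 0. RJ leaf was the highest of the leaves in 37 genes and the lowest in 81. The genes are described by role, each with its level in every leaf.

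Both catalase genes past the rule differed in opposite directions. cat1, measured by 11 probes, lay at 1.91 in RJ leaf, against 1.04, 0.78 and -0.55 in AV, TM and SK leaf. The difference was 1.49 (2.80-fold higher), and RJ leaf stood 0.87 above AV leaf, the next highest. All 11 probes were higher than the mean of the other leaves, by 0.86 to 2.09. CAT2, measured by 1 of its 4 probes, lay at -2.48 in RJ leaf, against 0.93, -1.91 and -1.73 in AV, TM and SK leaf. The difference was -1.58 (2.99-fold lower), of which most came from AV leaf, and without AV leaf the gene no longer passed the rule. Both kept ascorbate peroxidase genes, whose enzymes also remove hydrogen peroxide, were within the range of the other leaves, APX1 at a difference of 0.35 and APX2 at 0.

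Genes of transport and of the cell wall supplied the clearest single differences on the higher side. PT1, a phosphate transporter gene of the plasma membrane, lay at -0.44 in RJ leaf, against -2.24, -1.85 and -2.94 in AV, TM and SK leaf. It was 3.73-fold higher (1.90, log2) and 1.40 above the nearest leaf, so that RJ leaf stood alone, although 1 probe of 2 was kept. XTH1, a xyloglucan endotransglucosylase/hydrolase gene whose product remodels the cell wall, lay at -1.31 in RJ leaf, against -2.75, -2.94 and -2.57 in AV, TM and SK leaf. It was 2.72-fold higher (1.44), the other leaves spread by an SD of 0.19, and RJ leaf was 1.26 above the nearest of them. pip1, a plasma membrane aquaporin gene that carries water, lay at 0.55 in RJ leaf, against -1.65, 0.40 and -1.84 in AV, TM and SK leaf. It was 2.98-fold higher (1.58), yet only 0.15 above TM leaf, so that RJ and TM leaf were high and AV and SK leaf low. rem-1, a remorin gene whose product lies at the plasma membrane, was likewise high in RJ and TM leaf and low in AV and SK leaf, at -0.38 in RJ leaf, against -1.76, -0.80 and -1.74 in AV, TM and SK leaf (2.07-fold higher). The other members of the transport list were mostly near the other leaves, and 7 of its 16 genes were kept, with a median of 0.06. The ammonium transporter gene AMT1-3 was the lowest of them, at -2.74 in RJ leaf, against -0.69, -2.56 and -2.46 in AV, TM and SK leaf (-0.84), a difference set by a high AV leaf.

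The other higher genes followed TM leaf as well. CZFP1, measured by 1 of its 8 probes, had the largest difference of all named genes, 2.22 (4.67-fold higher). It lay at 1.55 in RJ leaf, against -2.71, 1.08 and -0.39 in AV, TM and SK leaf. RJ leaf exceeded TM leaf by 0.47, and the size of the difference came from the low AV leaf. The extracellular chitinase gene CHI3, of pathogen defence, lay at 0.78 in RJ leaf, against -1.46, 0.34 and -1.47 in AV, TM and SK leaf (3.13-fold higher, 1.65), with its 3 probes between 1.58 and 1.70. GAD2, a glutamate decarboxylase gene for the synthesis of gamma-aminobutyric acid, lay at -0.47 in RJ leaf, against -2.12, -0.70 and -2.21 in AV, TM and SK leaf (2.31-fold higher, 1.21), with its 6 probes between 0.71 and 1.59. In the probe with the smallest difference TM leaf (-0.20) lay above RJ leaf (-0.52), and in the next both lay at 0.06. With the brightest probe alone GAD2 did not pass the rule. ACO1, an ACC oxidase gene for the last step of ethylene synthesis, lay at -0.23 in RJ leaf, against -0.91, -0.59 and -3.08 in AV, TM and SK leaf (2.46-fold higher, 1.30). Only 1 of its 8 probes was kept, SK leaf alone was low, and without SK leaf the gene no longer passed the rule, with a difference of 0.52. GAD2 and rem-1 fell just short of 2-fold without SK leaf (0.94 and 0.90) and without AV leaf (0.99 and 0.89).

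**Figure D3:**
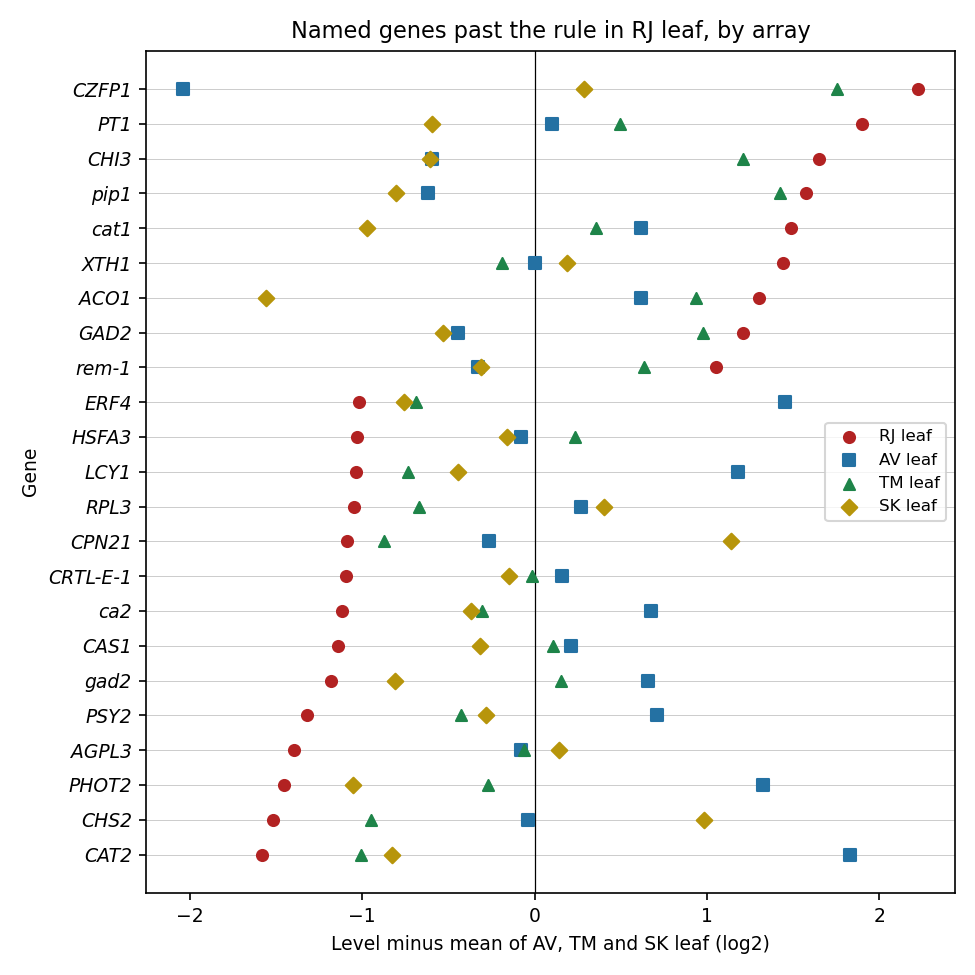
Level of each leaf array minus the mean of AV, TM and SK leaf (x axis, log2) for the 23 named genes past the rule (y axis), with RJ leaf as red circles, AV leaf as blue squares, TM leaf as green triangles and SK leaf as yellow diamonds. RJ leaf stands at least 0.87 from the nearest other leaf in PT1, XTH1, cat1, AGPL3, CRTL-E-1, PSY2 and HSFA3, while in pip1, GAD2 and CHI3 TM leaf lies next to it.

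The carotenoid and isoprenoid list was the group with most genes on the lower side. Of 20 genes on the array 10 were kept, and 9 of these 10 were below the mean of the other leaves, with a median of -0.68, against -0.07 over all named genes. RJ leaf was the lowest leaf in 8 of the 10, where it was the lowest in 81 of 264 named genes, and 3 of the 10 were lower by the rule, against 14 of the 264 (5.3%). The summed level of all 20 genes, NCED1 included, was 0.85 in RJ leaf (log2). It was 1.45, 1.14 and 0.88 in AV, TM and SK leaf, so that SK leaf was almost as low. PSY2, CRTL-E-1, LCY1, PDS, DXR and FPPS1 were dim in RJ leaf, between -2.65 and -3.30. The lowest level flagged as well above background on that array was -3.66. Over the dimmest group of probes the median difference was -0.23, and the part of this lean in the list was not tested. PSY2, a phytoene synthase gene, lay at -3.02 in RJ leaf, against -0.99, -2.13 and -1.98 in AV, TM and SK leaf (2.49-fold lower, -1.32). RJ leaf was 0.89 below TM leaf, the next lowest. CRTL-E-1, the lycopene epsilon-cyclase gene of the lutein branch, lay at -3.15 in RJ leaf, against -1.89, -2.06 and -2.20 in AV, TM and SK leaf (2.13-fold lower, -1.09). Here the other leaves were close to each other, and RJ leaf was 0.95 below them. LCY1, the lycopene beta-cyclase gene, lay at -2.85 in RJ leaf, against -0.64, -2.55 and -2.26 in AV, TM and SK leaf (2.05-fold lower, -1.03), where the high AV leaf set the size.

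Further genes of the same list were lowest in RJ leaf without reaching 2-fold. PDS, the phytoene desaturase gene, lay at -2.77 in RJ leaf, against -2.0, -1.99 and -1.74 in AV, TM and SK leaf (-0.86), so that RJ leaf lay 0.77 below a narrow range. ZDS, the zeta-carotene desaturase gene, lay at -1.62 in RJ leaf, against -1.06, -1.21 and -0.94 in AV, TM and SK leaf (-0.54). DXR, of the plastid route to isoprenoid precursors, lay at -3.30 in RJ leaf, against -2.05, -2.78 and -2.61 in AV, TM and SK leaf (-0.82). DXS, the entry enzyme gene of that route, differed by -0.47, FPPS1, a farnesyl diphosphate synthase gene, by -0.48, and HDR, of the same plastid route, by -0.49 but within the range of the others. NCED1, whose enzyme cleaves carotenoids toward abscisic acid, was the exception, at -0.35 in RJ leaf, against -2.46, -0.27 and -1.90 in AV, TM and SK leaf (1.19), just below TM leaf. PSY2, CRTL-E-1 and LCY1 each rest on 1 probe, of 4, 4 and 8 on the array. Under every scaling, background correction, probe choice and left-out leaf tried, 9 of the 10 stayed below 0, but the number lower by the rule was 1, in place of 3, without AV leaf, with quantile normalization and with the percentile over all probes. With that percentile NCED1 passed it as higher. Kept members had to be above background on all 4 leaf arrays, so that 10 genes, among them the beta-carotene hydroxylase genes CrtR-b1 and CrtR-b2, gave no difference. Of the 20 genes 12 were above background in RJ leaf, against 14, 13 and 10 in AV, TM and SK leaf. SK leaf, not RJ leaf, thus had the fewest.

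Violaxanthin de-epoxidase, which forms zeaxanthin under strong light, is encoded by VDE, which was well above background in the 3 other leaves and not in RJ leaf. With 1 of its 7 probes used, its measured level was -4.81 in RJ leaf, against -3.17, -3.57 and -3.10 in AV, TM and SK leaf, which gives a level at least 1.30-fold lower in RJ leaf.

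Photosynthesis genes were moderately lower than the mean of the other leaves, and none passed the rule. The summed level of the 8 genes on the array was 4.63 in RJ leaf (log2). It was 5.24, 4.99 and 4.52 in AV, TM and SK leaf, so that SK leaf was lower still. All 6 kept of 8 lay below the mean of the other leaves, with a median of -0.39, and RJ leaf was the lowest leaf in 3. Among all 264 named genes 149 lay below that mean, with a median of -0.07, and RJ leaf was the lowest in 81. SBPASE, an enzyme gene of the Calvin cycle, lay at -0.77 in RJ leaf, against 0.04, -0.42 and 0.03 in AV, TM and SK leaf (-0.66). PSBP, of the oxygen-evolving complex of photosystem II, lay at 0.93 in RJ leaf, against 1.60, 1.63 and 1.12 in AV, TM and SK leaf (-0.52). Its companion PsbQ was at 2.14 in RJ leaf, against 2.37, 2.78 and 2.20 in AV, TM and SK leaf (-0.31), and CAB4, a chlorophyll a/b binding protein gene, was at 1.78 in RJ leaf, against 2.98, 2.1 and 1.70 (-0.48). In CAB4 SK leaf was still lower. PSBR and CAB6A differed by -0.16 and -0.12. Without AV leaf the median was -0.23, and with the percentile over all probes -0.26, each with 5 of the 6 below 0.

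Light receptor genes were low in RJ leaf mainly relative to AV leaf. PHOT2, the blue-light receptor gene phototropin 2, which steers chloroplast movement, lay at -3.45 in RJ leaf, against -0.67, -2.26 and -3.05 in AV, TM and SK leaf (2.74-fold lower, -1.45), with SK leaf only 0.40 above RJ leaf. All 4 kept genes of the circadian, light and flowering list, of 11, were below 0, with a median of -0.40, but RJ leaf was the lowest only for the phytochrome gene PHYA (-0.25). Without AV leaf the median was -0.10, with 2 above and 2 below 0. The cryptochrome genes CRY1A (-0.33) and Cry1b (-0.47) and CIP1 (-1.35) were set apart by AV leaf, where CIP1 lay at 1.07, against -2.48 in RJ leaf and -2.54 and -1.91 in TM and SK leaf.

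Starch and sugar genes leaned lower, with 1 gene far from the other leaves. AGPL3, a large-subunit gene of ADP-glucose pyrophosphorylase, the first committed enzyme of starch synthesis, lay at -2.85 in RJ leaf, against -1.53, -1.52 and -1.31 in AV, TM and SK leaf. It was 2.63-fold lower (-1.39), and the other leaves spread by an SD of 0.12, with RJ leaf 1.31 below the lowest of them. The related AgpL1 lay at -3.21 in RJ leaf, against -2.59, -2.66 and -2.88 in AV, TM and SK leaf (-0.50). Both rest on 1 probe. The malate dehydrogenase gene mdh (-0.54) was also lowest in RJ leaf, while AI, FRK3 and SDH (-0.45, -0.26 and -0.26) were within the range. Of 27 genes of this list 7 were kept, 6 were below 0, and the median was -0.45. Without AV leaf the median was -0.28, with 3 above and 4 below 0. GAD2, described above, is its only member above 0.

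The glycoalkaloid genes were low in RJ leaf in all 3 kept cases of 5. The gene gad2, for which the reference gives the synonyms GAME11 and 16DOX, a dioxygenase of the steroid part of the pathway, is a different gene from GAD2. Over 10 probes it lay at -0.22 in RJ leaf, against 1.62, 1.11 and 0.15 in AV, TM and SK leaf (2.27-fold lower, -1.18), and every probe was below the mean of the others, by 0.72 to 1.63 in size. SK leaf was only 0.37 above RJ leaf, so that RJ and SK leaf were low and AV and TM leaf high. In probes where RJ leaf lay at -2.73 and -1.81, SK leaf was slightly lower, at -2.74 and -1.89. Not every probe of gad2 passed the rule. GAME1, which attaches the first sugar to tomatidine, lay at -1.41 in RJ leaf, against -0.22, -0.35 and -0.84 in AV, TM and SK leaf (-0.94). GABA-TP2, with the synonym GAME12, a transaminase gene, lay at -1.59 in RJ leaf, against -1.46, -0.62 and -1.45 in AV, TM and SK leaf (-0.41), where TM leaf alone was high. Its 3 probes disagreed in sign, from -0.80 to 0.07. The list had a median of -0.94, and its 3 genes stayed below 0 under each scaling, background correction, probe choice and left-out leaf tried. CAS1, outside this list, lay at -2.77 in RJ leaf, against -1.41, -1.52 and -1.94 in AV, TM and SK leaf (2.21-fold lower, -1.14), 0.82 below the nearest leaf.

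Phenylpropanoid genes were few. CHS2, a chalcone synthase gene at the entry to flavonoids, lay at -2.62 in RJ leaf, against -1.15, -2.06 and -0.13 in AV, TM and SK leaf (2.86-fold lower, -1.51), in the order SK, AV, TM and RJ from high to low. The chlorogenic acid synthesis gene hqt lay at -0.76 in RJ leaf, against 0.23, -0.61 and -0.62 in AV, TM and SK leaf (-0.43). These were the only 2 kept of 8.

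The remaining lower genes came from the chloroplast, the ribosome and transcription. CPN21, a chloroplast co-chaperonin gene, lay at -2.92 in RJ leaf, against -2.10, -2.71 and -0.70 in AV, TM and SK leaf (2.12-fold lower, -1.09), and RPL3, a ribosomal protein gene, at -1.89 in RJ leaf, against -0.57, -1.51 and -0.44 (2.07-fold lower, -1.05). TM leaf was next to RJ leaf in both, and without SK leaf neither passed the rule. HSFA3, a heat stress transcription factor gene, lay at -2.96 in RJ leaf, against -2.01, -1.69 and -2.09 in AV, TM and SK leaf (2.04-fold lower, -1.03), with RJ leaf 0.87 below the other leaves. Without TM leaf, with quantile normalization and with the normexp background correction HSFA3 did not pass the rule. ERF4, an ethylene response factor gene, lay at -3.37 in RJ leaf, against -0.90, -3.04 and -3.11 in AV, TM and SK leaf (2.03-fold lower, -1.02), with AV leaf alone high. ca2 lay at -1.89 in RJ leaf, against -0.09, -1.07 and -1.14 in AV, TM and SK leaf (2.17-fold lower, -1.12). Its 7 probes disagreed, from -1.91 to 0.39, and with only those above background in leaf and fruit of all accessions the difference was 0.22.

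Without AV leaf, 8 of the 14 lower genes no longer passed the rule, namely CAT2, ERF4, LCY1, PHOT2, PSY2, RPL3, ca2 and gad2. The genes still counted without any 1 of the other leaves were CZFP1, PT1, CHI3, pip1, cat1 and XTH1 on the higher side and CHS2, AGPL3, CAS1 and CRTL-E-1 on the lower side. Of these, only CHI3 and cat1 have several kept probes. CZFP1 rests on 1 of 8 probes on the array, pip1 and CRTL-E-1 on 1 of 4, CAS1 on 1 of 3, and PT1 and CHS2 on 1 of 2. XTH1 and AGPL3 have 1 probe on the array. Among the other lower genes, PHOT2 rests on 1 of 4 probes and HSFA3 on 1 of 3. Just inside the rule were rem-1 at 1.05, RPL3 at -1.05, LCY1 and HSFA3 at -1.03 and ERF4 at -1.02. Just outside it were the subtilisin-like protease gene P69B at 0.95, where RJ leaf was 0.11 above TM leaf, and GAME1 at -0.94.

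The defence list leaned higher, and that lean rested on SK leaf. All 5 kept genes of 13 were above 0, with a median of 0.95, which was -0.03 without SK leaf. Under spike-in scaling it was 0.06, where that of all named genes was -0.96. Besides CHI3, P69B lay at 1.07 in RJ leaf, against 0.50, 0.96 and -1.10 in AV, TM and SK leaf. PR1b1, a pathogenesis-related protein gene, lay at 2.43 in RJ leaf, against 2.36, 2.56 and -1.06 in AV, TM and SK leaf (1.14), so that its difference is the low SK leaf. The chitinase gene CHI9 (0.29) and the glucanase gene GluB (0.22) were within the range. The wound and jasmonate list had 5 kept genes of 18, a median of 0.03, and all 5 within the range of the other leaves.

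Ethylene genes went both ways. Of 36 genes 10 were kept, 6 above and 4 below 0, with a median of 0.36 (0.03 without SK leaf), and ACO1 and ERF4 passed the rule in opposite directions. RJ leaf was also the highest leaf for ERF3 (0.59), the EIN3-like transcription factor gene EIL3 (0.54) and JERF1 (0.44), and the lowest for JERF3 (-0.48). Transcription factor genes, 6 kept of 33, had a median of 0.35 (0.17 without SK leaf and 0.20 without AV leaf). Of these, bZIP1 lay at -0.88 in RJ leaf, against -2.62, -0.91 and -0.96 in AV, TM and SK leaf (0.62), which shows a low AV leaf rather than a high RJ leaf.

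Cell wall genes had a median of 0.09 over 9 kept of 32, with 5 above and 4 below 0. TLRP, a cell wall protein gene, lay at 4.04 in RJ leaf, against 3.82, 3.57 and 2.03 in AV, TM and SK leaf (0.90), and the expansin gene EXP5 was also highest in RJ leaf (0.56). The beta-galactosidase gene TBG5 lay at -1.35 in RJ leaf, against -0.50, 0.10 and -1.15 in AV, TM and SK leaf (-0.84). The glycine-rich protein gene GRP1, in no list, lay at 2.48 in RJ leaf, against 0.29, 2.37 and 2.37 in AV, TM and SK leaf (0.81), again a low AV leaf.

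Nitrogen and amino acid metabolism leaned higher, with a median of 0.30 (0.09 without SK leaf) over 6 of 11 genes, 5 of them above 0. The remaining lists stayed near the median of all named genes or held few genes. The drought, abscisic acid and oxidative stress list had a median of 0 over 9 of 19 genes, hormone signalling -0.02 over 4 of 24 and cell cycle and DNA -0.17 over 6 of 17. Heat shock and chaperone genes, 3 kept of 9, had a median of 0.49 (0.32, 0.84 and 0.30 without AV, TM and SK leaf). All 5 housekeeping genes were kept, with 2 above and 3 below 0 and GAPDH (0.47) and RPL8 (-0.56) at the ends. The fruit markers and the trichome, root and stem markers had 1 kept gene each, Cel2 (0.09) and TPx1 (0.19).

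**Figure D4:**
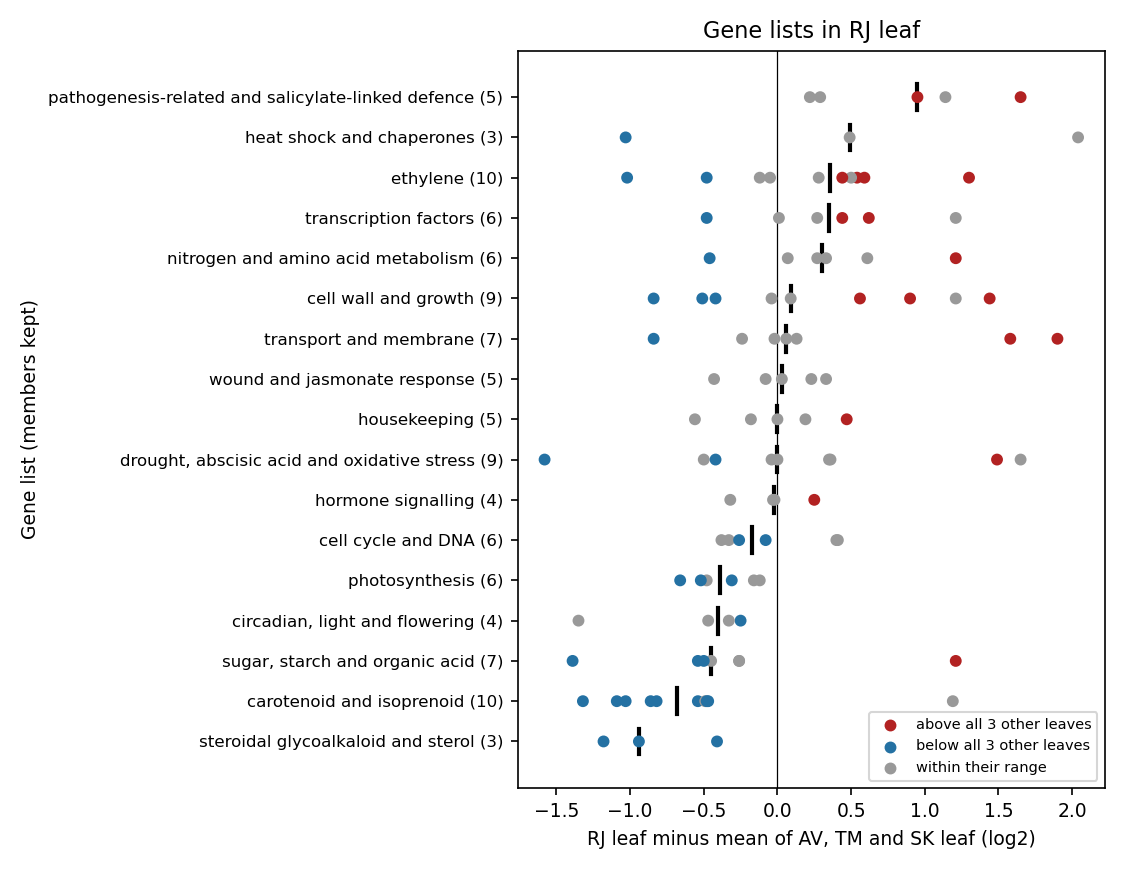
Difference of RJ leaf from the mean of the other leaves (x axis, log2) for the kept members of each gene list with at least 3 of them (y axis, number kept in brackets), with black bars at the list medians. Red points lie above all 3 other leaves, blue points below all of them and grey points within their range, and 8 of the 10 carotenoid and isoprenoid genes are blue.

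Several stress genes differed by more than 2-fold without setting RJ leaf apart, because TM leaf was as high. Hsc70.1, a cytosolic chaperone gene, lay at 1.75 in RJ leaf, against -2.83, 1.88 and 0.05 in AV, TM and SK leaf (2.04). LEA14, a late embryogenesis abundant protein gene, lay at 1.15 in RJ leaf, against -2.48, 1.27 and -0.28 in AV, TM and SK leaf (1.65). WRKY40, a transcription factor gene of stress and defence, lay at 0.98 in RJ leaf, against -1.78, 1.1 and -0.04 in AV, TM and SK leaf (1.21). In each of the 3, RJ and TM leaf were high, SK leaf lay between and AV leaf was low, as also in CZFP1. AGP-1, an arabinogalactan protein gene, lay at 0.65 in RJ leaf, against -2.86, 0.67 and 0.51 in AV, TM and SK leaf (1.21), with AV leaf alone low.

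Some probes were well above background in RJ leaf alone or in the other leaves alone. RJ leaf alone had 105 such probes, against 632, 735 and 148 for AV, TM and SK leaf alone. In the 3 other leaves but not in RJ leaf there were 253, against 555, 4 and 762 for the sets without AV, TM and SK leaf. Such genes have only a bound, taken as the mean of the brighter side over the mean, per dim array, of the gene's own signal or the array's lowest signal flagged as well above background, whichever was higher. In RJ leaf alone the bounds were small, at least 1.16-fold higher for TCP12, ADH and ALPHA-DOX2 and at least 1.05-fold for ProT1, a proline transporter gene, while THT7-8 gave none. On the other side, DDB1, the gene mutated in the high-pigment 1 tomato, was at least 1.69-fold lower in RJ leaf, ICE1A at least 1.60-fold, PP5 at least 1.49-fold and the glutaredoxin gene GRX1 at least 1.33-fold. Measured levels of DDB1 were -3.41 in RJ leaf, against -2.70, -2.79 and -2.49 in AV, TM and SK leaf.

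For 9 of the 23 genes past the rule in leaf, RJ fruit gave a value beside the leaf difference, and the other 14, among them XTH1, AGPL3, PSY2 and CHI3, were not above background on all fruit arrays. Leaf and fruit were set side by side, each against the other accessions of its tissue. RJ and SK fruit lay on slide 3 and AV and TM fruit on slide 2, so that part of an RJ fruit difference cannot be told apart from the slide. Of the 9 higher genes, 6 were above background on all fruit arrays, with 2 above and 4 below 0 in fruit and a median of -0.05. Of the 14 lower genes, 3 were, namely CPN21, ca2 and RPL3, with a median of -0.03 in fruit. That median is the value of ca2, a mean over 7 probes that lay at -4.61 in RJ fruit. This mean is below -3.56, the lowest level flagged as well above background on that array. A gene counted here if at least 1 of its probes was above background on each fruit array. None of the 9 genes passed the rule in fruit. Over all 174 named genes above background on all fruit arrays, 0 were higher and 1 lower by the rule in fruit. Their median was -0.03, with 80 above and 94 below 0, so the 9 genes as a set did not stand apart from the rest in fruit. CPN21 differed by -1.09 in leaf and by -0.68 in fruit, where RJ fruit was below all other fruits. Against SK fruit alone, on the same slide, CPN21 differed by -0.67. In RPL3, also lower in leaf, RJ fruit was above all other fruits. PT1 differed by 1.90 in leaf and by -0.79 in fruit, cat1 by 1.49 and -0.18, pip1 by 1.58 and 0.30, and RPL3 by -1.05 and 0.48. Against SK fruit alone, on the same slide, RJ fruit differed by 0.17 in PT1, -0.17 in cat1, 1.23 in pip1 and 0.74 in RPL3, and by -0.88 to 1.23 over the 9 genes. Over the 174 named genes above background in all leaves and fruits, the fruit differences ran from -1.65 for the acid invertase gene AI to 1.00 for AGO4A.

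**Figure D5:**
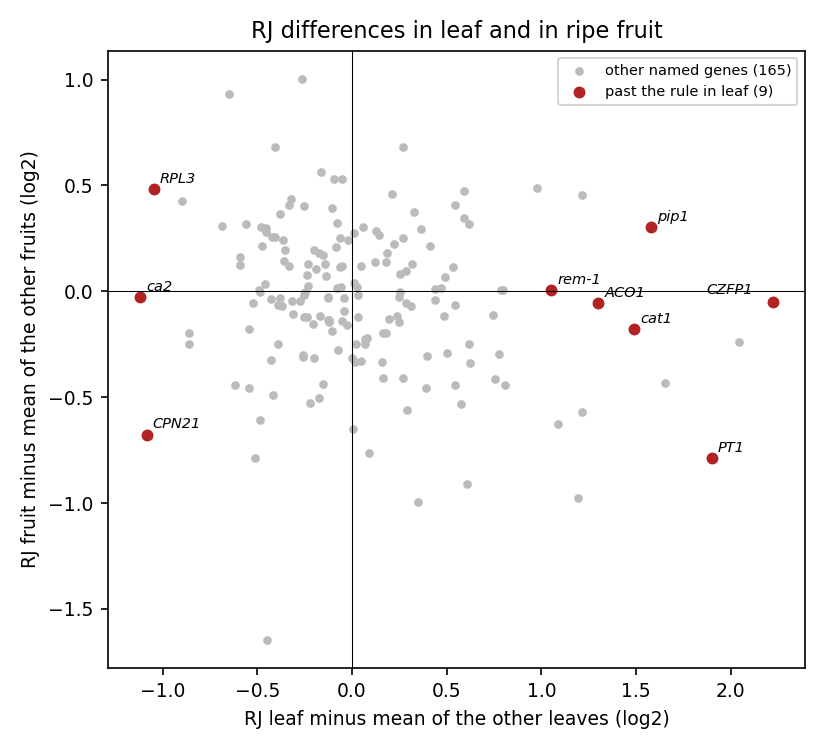
Difference of RJ fruit from the mean of the other fruits (y axis, log2) against the difference of RJ leaf from the mean of the other leaves (x axis, log2) for the 174 named genes above background on all 8 arrays. The 9 genes past the rule in leaf (red) lie between -0.79 (PT1) and 0.48 (RPL3) in fruit.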

How the data were processed

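RNA of mature leaf and red ripe fruit from 4 accessions gave 1 array each. The scanner output that the authors deposited gives an intensity for each spot, made by version 10.7.3.1 of Agilent Feature Extraction as the file headers state, together with flags for outlier spots and for signal well above background. A deposited table with log2 values from the authors was used as an alternative; its constant per probe is unknown, and 247 further empty columns were not used. From the processed intensities, outlier spots and control probes were left out, replicate spots averaged as log2 values, and the 75th percentile of each array subtracted, taken over 3091 probes above background in both tissues of all accessions. The array design labels 8503 tomato probes as negative controls; their effect on the flag was not tested.

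Probes were named by transcript accession with RefSeq names for the assembly SLM_r2.1 (2936 of 3132 accession probes, 1214 genes, 321 with a locus symbol only), and the kept probes of a gene were averaged. Of 124 genes with several kept probes, 31 had probes that disagreed in sign. Cross-hybridisation between related genes was not tested. No test between accessions was made, and precision is limited by having few arrays.

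The comparison, the 20 gene and marker lists and the alternatives were chosen with earlier results of these data known, and 3 list matches to unrelated genes were dropped after matching. The rule for named genes took the 12 largest differences each way outside the range of the other leaves, all list members past 2-fold there, up to 4 further members per list, and 5 genes each way with a bound. Other genes named in the text were chosen after their values were seen. Alternatives changed scaling, background correction (normexp, offset 50), source table, filter, fold minimum, probe choice and the leaves used. The counting routine was tested on simulated data. Python 3.11.15, numpy 2.4.6, pandas 2.3.3, R 4.3.3 and limma 3.58.1 (normexp) were used, and quantile normalization was computed in Python.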

Additional observations from a re-analysis of the deposited data

Results flagged for a closer look

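Among the 90 named genes, 12 had 1 leaf array far from the other 3, by the gap to the nearest array over the whole range. Chance alone gives such a gap in about 5% of groups picked without regard to their values. The 90 genes were mostly picked by the size of their differences in these data, so that share does not hold for them. No excess over chance can be read from the 12. In 1 of the 12 the distant array was RJ leaf, namely AGPL3, the starch synthesis gene, with RJ leaf at -2.85 and a gap of 0.856 of the range. AV leaf was distant in 7, at 0.29 for GRP1, -0.90 for ERF4, 0.23 for hqt, -2.86 for AGP-1, -0.69 for AMT1-3, -2.62 for bZIP1 and -1.09 for cdc2A-2. SK leaf was distant in 3, at -1.06 for PR1b1, -1.32 for the histone gene H1 and -0.49 for TPx1. TM leaf was distant in GABA-TP2, at -0.62.

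Tomato probes that the array design labels as negative controls were left out of the comparison, yet 674 of 8503 (7.9%) were well above background on RJ leaf. Of these labelled probes 455 were so on all leaf arrays, with 15 higher and 20 lower in RJ leaf and a median difference of -0.16.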

How the results depend on the processing

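The counts in RJ leaf were 143 higher and 261 lower probes and 9 higher and 14 lower named genes. With the percentile over all probes the genes were 19 and 7, and with quantile normalization 8 genes were lower. Spike-in scaling gave 9 and 2369 probes and 1 and 124 genes. Without a filter on dim probes there were 796 and 1119 probes and 40 higher genes, with probes above background on at least 1 leaf array 633 and 775 probes and 44 and 22 genes, and on all 8 arrays 91 and 71 probes (56.2% higher) and 2 lower genes, where ca2 turned to 0.22. A minimum of 1.5-fold gave 322 and 789 probes and 21 and 36 genes, and a minimum of 4-fold 9 and 3 probes and 1 and 0 genes. Leaving out 1 of the other leaves gave 112 to 310 higher and 211 to 392 lower probes and 7 to 29 higher and 7 to 18 lower genes. The highest counts of higher probes, lower probes and higher genes came without TM leaf (310, 392 and 29), and the lowest count of lower genes without AV leaf (7). Chosen after seeing the data, centring the differences on their median gave 202 and 179 probes (53% higher) and 18 and 7 genes, and the control-labelled probes gave 15 and 20. The cause of these shifts was not tested, beyond the number of probes, leaves or the threshold that each setting itself changes. Of the single-gene values under the alternatives 1201 moved by less than the spread of the other leaves, 92 moved by more and 1 reversed. Of the 23 counted genes, 22 kept their sign under all alternatives that gave a value. No paired analysis was possible because each accession and tissue has 1 array and no test was made. Signal limits the comparison to 13.7% of the probe names.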
